A study of Rattus norvegicus with 20 samples.

Results

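Potassium channel genes, whose products form the pores of potassium channels or assist them, are described here in alcohol-preferring (P) rats, in tissue of the central amygdala. They were chosen by name: every gene whose single symbol on the array starts with Kcn was taken, which gave 75 genes with 126 probe sets. Each gene is represented by its probe set of highest mean over the 20 arrays, and it was kept where that mean exceeded a log2 value of 7.14, the 40th percentile over non-control probe sets. This left 39 of the 75 genes, out of 10159 genes with a single symbol that passed the same limit. Nearest to the limit were Kcnj5 at 7.09 and Kcnk12 at 7.05 below it, and Kcnb2 at 7.24 and Kcnn3 at 7.49 above it.

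The P line was selected for drinking large amounts of alcohol by choice, and animals of both groups belong to it. The ethanol group held 10 animals that could drink ethanol solutions of 15% and 30% as adolescents, and the water group held 10 that received water only. Each animal gave 1 array. The age in days, the intake and the interval from the last drink to tissue collection were not stated in the sources at hand. All values are log2 probe set levels of bulk tissue, in which fewer cells of a type and less RNA per cell cannot be told apart.

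Potassium channels let potassium leave the cell, which sets the resting potential, ends the action potential and limits repetitive firing. Voltage-gated Kv channels are tetramers of Kcna, Kcnb, Kcnc or Kcnd subunits. Inward rectifiers (Kcnj) and tandem-pore domain channels (Kcnk) act near rest, Kcnq subunits carry the slow M-current, and Kcnn and Kcnma1 channels open with calcium. In the central amygdala these channels shape the firing of GABAergic projection and local neurons. Large-conductance calcium-activated (BK) channels and G-protein-gated inward rectifiers are known targets of ethanol.

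The arrays had similar medians (7.92 to 7.96) and pairwise correlations of 0.977 to 0.997. Ethanol animal 5 and water animals 15 and 18 correlated less well with the other arrays and were kept. Of 14 listed genes for inhibitory neurons and central amygdala peptides, 12 were measured. Of these, 10 had a higher mean with ethanol and 0 an unadjusted limma p under 0.05. Gad1, the GABA-synthesizing enzyme, averaged 14.37 with ethanol and 14.31 with water. Of 10 listed cortical and basolateral excitatory neuron markers 5 were measured, 2 had a higher mean with ethanol and 0 reached that level. Their mean per array ran from 7.80 to 9.94 with ethanol and from 7.80 to 10.21 with water. Of 20 listed oligodendrocyte and myelin genes, 18 were measured, all had a lower mean with ethanol, and 8 had an unadjusted limma p under 0.05. Their mean per array ran from 10.76 to 12.30 with ethanol and from 11.42 to 12.67 with water. All 20 pan-neuronal markers were measured, 18 had a higher mean with ethanol and 5 an unadjusted limma p under 0.05, and their mean per array ran from 12.20 to 12.55 with ethanol and from 12.01 to 12.46 with water. Of 12 listed striatal medium spiny neuron markers 11 were measured and all had a higher mean with ethanol (median 0.18), 1 at an unadjusted limma p under 0.05, with array means from 9.42 to 10.69 with ethanol and from 9.47 to 10.44 with water. Of 9 choroid plexus and ependyma markers 4 were measured and all had a lower mean (median -1.16), 2 at that level, with array means from 6.43 to 11.46 with ethanol and from 6.86 to 11.88 with water. Of 9 meningeal markers 7 were measured and all had a lower mean (median -0.29), 0 at that level, with array means from 7.85 to 9.503 with ethanol and from 7.89 to 10.58 with water. For comparison, 57.8% of all probe sets had a higher mean with ethanol, and 7.37% were higher and 5.48% lower at that level. The part of these tissue elements in the channel values was not tested other than by fits with the myelin and pan-neuronal means as covariates, given further on.

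Ethanol was compared with water to ask whether transcripts of these channels differed in the nucleus after adolescent drinking. No potassium channel gene passed limma's test adjusted over all probe sets (adjusted p of 0.239 to 0.985 for the 39 genes). That test called 4 of 18625 probe sets (0.0215%), or 1 gene of 10159 (0.00984%) with 1 probe set each. At an unadjusted limma p under 0.05 there were 6 of 39 genes with a higher mean in ethanol, namely Kcnd3, Kcnk4, Kcnd1, Kcnab2, Kcnmb4 and Kcnq5, and 0 with a lower one. Kcnmb4 and Kcnq5 missed that level with the run of the accession order as a block (p = 0.0519 and 0.0574 in limma) and after cyclic loess (p = 0.0606 and 0.0741). Of all probe sets 12.8% reached that level, 7.37% higher and 5.48% lower, and of genes 12.1%, 6.33% higher and 5.77% lower. The mean was higher with ethanol in 32 of the 39 genes, against 57.8% of probe sets and 56.7% of genes. The median log2 difference was 0.096, against 0.016 over all probe sets and 0.013 over genes. In 0 of the 39 genes did the groups separate without overlap, against 0.0268% of probe sets and 0.0295% of genes.

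**Figure D1:**
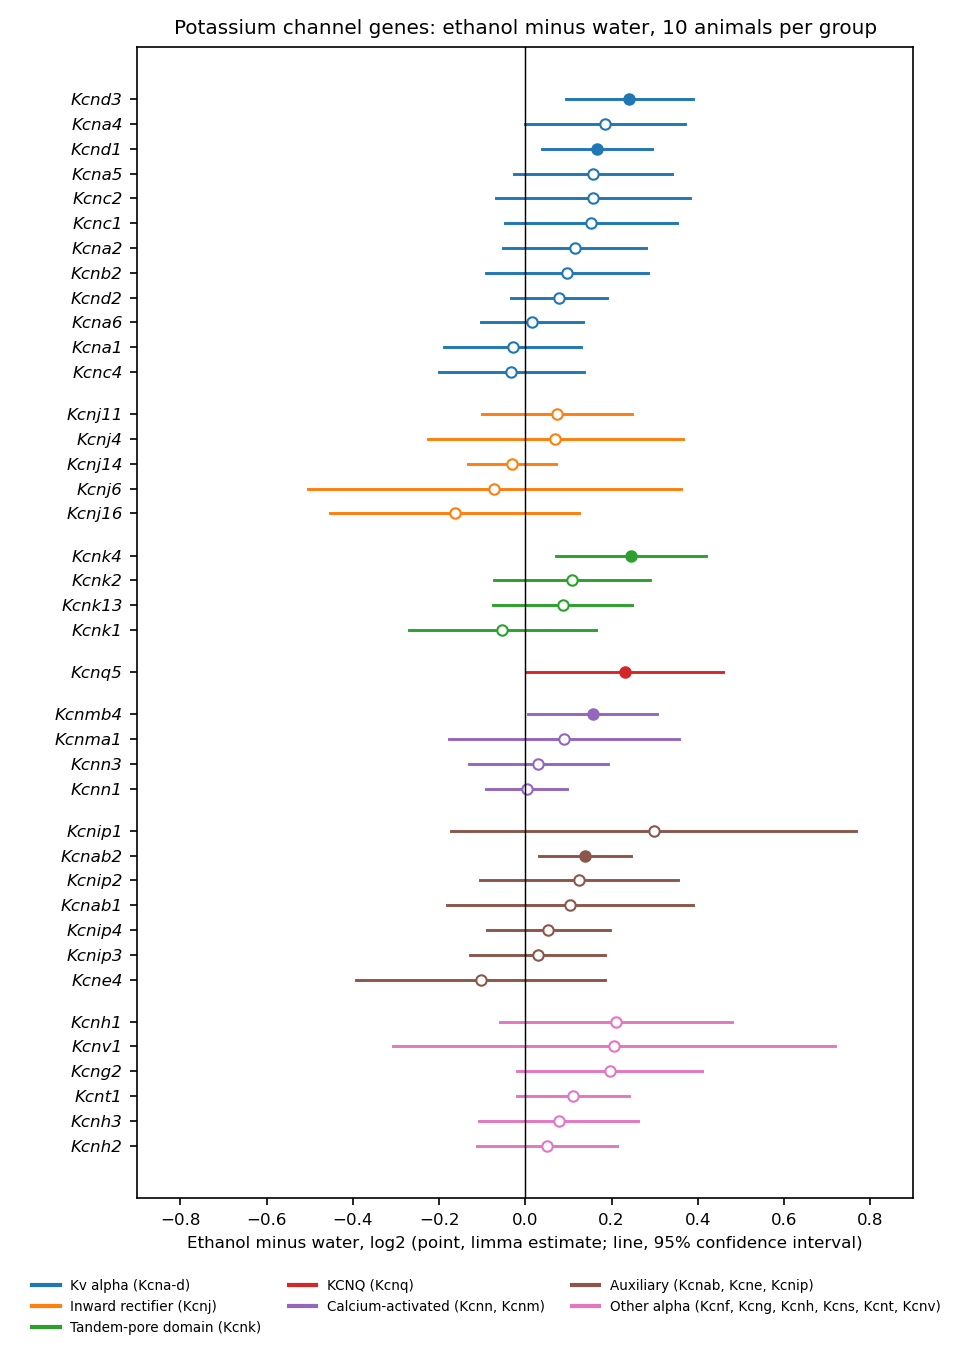
Difference of mean log2 level, ethanol minus water (x axis), for the 39 potassium channel genes (rows, grouped and coloured by subfamily). Points are limma estimates from 10 animals per group, lines are 95% confidence intervals and filled points have an unadjusted p under 0.05; the 6 filled points all lie to the right of 0, and the 7 estimates below 0 have intervals that cross it.

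Promoter sequence was at hand for 29 of the 39 genes as RefSeq windows of 300 bases on build GRCr8, from 250 bases before to 50 bases after the annotated start. Those of Kcnd3, Kcnk4 and Kcnab2 are printed because these genes had the smallest p-values among those with a window. Kcnd1 has no entry. Capitals mark the GC box GGGCGG on either strand, a motif bound by Sp-family factors. The windows lie at chr2:195626066-195626365 on the plus strand (Kcnd3), chr1:213555812-213556111 on the minus strand (Kcnk4) and chr5:168270711-168271010 on the minus strand (Kcnab2), each written 5′ to 3′.
Kcnd3: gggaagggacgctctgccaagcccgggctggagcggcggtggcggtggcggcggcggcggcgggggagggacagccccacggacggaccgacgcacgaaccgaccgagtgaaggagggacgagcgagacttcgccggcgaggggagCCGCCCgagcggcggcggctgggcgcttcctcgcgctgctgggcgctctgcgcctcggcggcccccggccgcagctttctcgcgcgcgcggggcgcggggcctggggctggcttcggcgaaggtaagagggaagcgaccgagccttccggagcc
Kcnk4: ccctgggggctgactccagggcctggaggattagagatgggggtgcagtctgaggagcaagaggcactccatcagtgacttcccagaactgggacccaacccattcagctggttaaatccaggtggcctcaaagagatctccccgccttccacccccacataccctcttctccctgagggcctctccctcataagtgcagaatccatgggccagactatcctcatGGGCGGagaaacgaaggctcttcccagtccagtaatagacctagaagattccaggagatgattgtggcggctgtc
Kcnab2: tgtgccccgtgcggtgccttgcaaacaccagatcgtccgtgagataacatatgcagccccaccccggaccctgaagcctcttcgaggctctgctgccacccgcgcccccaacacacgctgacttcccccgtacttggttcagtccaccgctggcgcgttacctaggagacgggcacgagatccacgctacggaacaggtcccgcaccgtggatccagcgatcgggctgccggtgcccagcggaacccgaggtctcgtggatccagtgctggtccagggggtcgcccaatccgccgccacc

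The Kcnd3 window is 77.7% G and C with 48 CpG dinucleotides, that of Kcnk4 56.7% with 4, and that of Kcnab2 66% with 28, so these windows differ widely in composition. A GC box occurred in 15 of the 29 windows (51.7%), against 33.1% of the 33469 windows of that length over all genes. The median G and C content was 62.3% in the 29 windows and 51.7% in all. The CCAAT box (CCAAT) occurred in 8 of 29 (27.6%), against 37.5% of all. The TATA box (TATAAA), the cAMP response element (TGACGTCA) and a stretch of the RE1 element bound by the repressor REST (TTCAGCACC) occurred in 0 of 29, against 14.2%, 1.83% and 0.356%. The 29 windows belong to genes above the filter, while the 33469 windows were not limited to such genes. Windows of other genes above the filter were not compared. Whether these contrasts in motifs and in G and C content are particular to potassium channel genes was therefore not tested. All motifs were searched on both strands, none contains another, and a match describes the letters only.

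Kv4 channels (Kcnd1, Kcnd2 and Kcnd3) carry the fast A-type current that opens below the firing threshold and damps signals in dendrites. Kcnd3 (Entrez gene 65195, chromosome 2) had the smallest p of the family, with values from 10.64 through a median of 10.86 to 11.07 with ethanol and from 10.41 through 10.62 to 10.96 with water. All 10 ethanol animals lay above the water median and 4 above the highest water value, while 7 water animals lay below the lowest ethanol value. The means were 10.89 ± 0.13 with ethanol and 10.64 ± 0.19 with water (SD, n = 10 each), and their difference was 0.24 (SE 0.071, limma adjusted p = 0.239), or 1.18-fold. The other probe set above the filter gave 0.18. The accession order falls into 3 runs of 8, 8 and 4 arrays with both groups equal in each, and within them Kcnd3 differed by 0.30, 0.19 and 0.24.

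Kcnd1 (Entrez gene 116695, chromosome X) ran from 7.73 through a median of 7.91 to 8.09 with ethanol and from 7.40 through 7.77 to 7.94 with water. Of the ethanol animals, 9 lay above the water median and 4 above the highest water value, and water animals 14 and 18 were lowest of all. The difference was 0.17 (SE 0.061, limma adjusted p = 0.313), with 0.24, 0.17 and 0.0075 in the runs, so the last run showed almost none. Kcnd2 ran from 12.11 through a median of 12.25 to 12.44 with ethanol and from 11.89 through 12.19 to 12.37 with water, so that the ranges largely overlapped, and differed by 0.078 (SE 0.054, limma adjusted p = 0.533), with 0.11 in its other probe set above the filter. The 95% intervals were 0.094 to 0.39 for Kcnd3, 0.039 to 0.29 for Kcnd1 and -0.033 to 0.19 for Kcnd2, and they overlapped. Dpp6 and Dpp10, the membrane partners of Kv4 channels, both had a higher mean with ethanol, and 0 had an unadjusted limma p under 0.05.

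**Figure D2:**
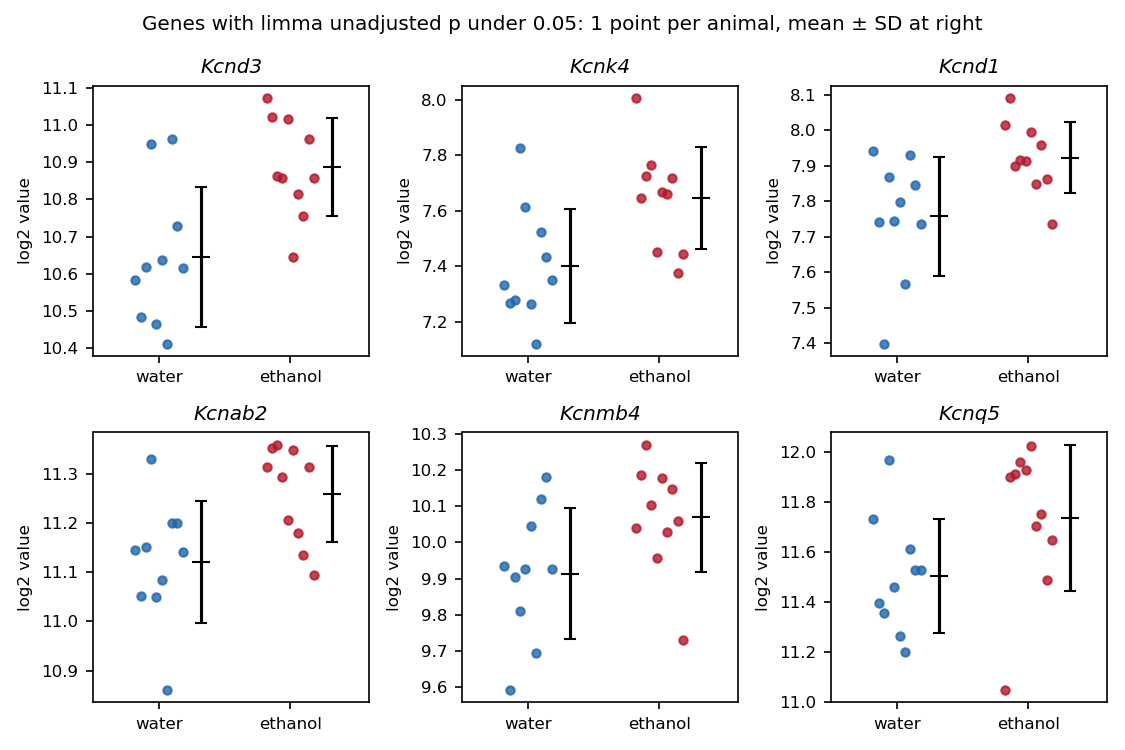
Log2 level (y axis) of the 6 potassium channel genes with a limma unadjusted p under 0.05, 1 point per animal in the water and ethanol groups (10 each), with the mean and SD drawn at the right of each group. The groups overlap in every panel, and in that of Kcnq5 ethanol animal 1 lies lowest, at 11.05.

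Kv1 channels (Kcna) sit on axons and terminals, where they set the threshold for firing. Kcna2, a delayed rectifier of axons, ran from 11.42 through a median of 11.55 to 12.07 with ethanol and from 11.33 through 11.46 to 11.80 with water, a difference of 0.11 (SE 0.080, limma adjusted p = 0.541). Of the ethanol animals 7 lay above the water median and 2 above the highest water value. Kcna1, which joins Kcna2 in axonal channels, ran from 10.81 through a median of 11.05 to 11.21 with ethanol and from 10.79 through 11.03 to 11.39 with water, and all its ethanol values lay within the water range. It differed by -0.029 (SE 0.076, limma adjusted p = 0.896), with 0.042, -0.23 and 0.24 in the runs and 0.085 with the myelin mean as a covariate, so its sign was not stable.

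Kcna4, an A-type subunit of axons, ran from 10.31 through a median of 10.72 to 10.96 with ethanol and from 10.05 through 10.52 to 10.79 with water and differed by 0.18 (SE 0.089, limma adjusted p = 0.391). Ethanol animals lay above the water median in 8 of 10 cases, and each run gave a positive value (0.19, 0.15 and 0.25). Kcna5 differed by 0.16 (SE 0.088), with 5 ethanol animals above the highest water value, and Kcna6 by 0.017 (SE 0.057).

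Of the proteins that cluster Kv1 channels on axons, all 9 listed genes were measured and 8 had a higher mean with ethanol. An unadjusted limma p under 0.05 was found for 4 in that direction and 0 in the other. Over all probe sets 57.8% had a higher mean, and 7.37% were higher and 5.48% lower at that level. Lgi1, a secreted ligand of Adam22, differed by 0.18 (SE 0.073, limma adjusted p = 0.325), and Adam22 by 0.13 (SE 0.053, limma adjusted p = 0.328). The paranodal Cntnap1 differed by 0.14 (SE 0.053, limma adjusted p = 0.315) and its cytoskeletal linker Epb41l3 by 0.19 (SE 0.075, limma adjusted p = 0.326).

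Kv3 channels (Kcnc) repolarize fast and allow high firing rates. Kcnc1 ran from 11.06 through a median of 11.28 to 11.996 with ethanol and from 10.89 through 11.23 to 11.49 with water. Ethanol animals 1 and 9 stood above all water animals, and the other 8 lay within the water range. The difference was 0.15 (SE 0.096, limma adjusted p = 0.493), 0.082 without ethanol animal 1 and 0.013 with the pan-neuronal mean as a covariate. Kcnc2 differed by 0.16 (SE 0.11) and Kcnc4 by -0.032 (SE 0.081). The other probe sets of Kcnc2 above the filter gave 0.030 and 0.091, at means of 10.12 and 7.77 against 11.49 for the one used. Kcnb2, of the Kv2 delayed rectifiers, differed by 0.096 (SE 0.090), and Amigo1, the adhesion protein that accompanies Kv2 channels, by 0.19 (SE 0.077, limma adjusted p = 0.339), the 1 of 3 listed Kv2 partners with an unadjusted p under 0.05.

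Kcnq5 (Entrez gene 259273, chromosome 9) was the 1 of 3 Kcnq genes above the filter. It ran from 11.05 through a median of 11.82 to 12.02 with ethanol and from 11.20 through 11.49 to 11.97 with water. Ethanol animal 1 was the lowest of all 20 animals, and 8 of 10 ethanol animals lay above the water median. The difference was 0.23 (SE 0.11, limma adjusted p = 0.386), or 0.31 without ethanol animal 1, with 0.091, 0.47 and 0.040 in the runs. The other probe set above the filter gave -0.025, so the probe sets of this gene differed in sign. Its mean of 7.19 was close to the filter, against 11.62 for the probe set used. With the myelin mean as a covariate the difference was 0.068. All 5 listed genes for anchors and regulators of Kcnq channels had a higher mean with ethanol, and 0 had an unadjusted limma p under 0.05.

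The BK channel combines the pore subunit Kcnma1 with auxiliary subunits, of which Kcnmb4 is the main neuronal one and is known to alter gating and alcohol sensitivity. Kcnmb4 (Entrez gene 66016, chromosome 7) ran from 9.73 through a median of 10.08 to 10.27 with ethanol and from 9.59 through 9.93 to 10.18 with water. All ethanol animals except animal 10 lay above the water median. The difference was 0.16 (SE 0.072, limma adjusted p = 0.375), with 0.34, 0.13 and -0.16 in the runs, so the last run had the opposite sign. Kcnma1 ran from 9.25 through a median of 10.32 to 10.53 with ethanol and from 9.91 through 10.13 to 10.65 with water, with ethanol animal 1 far below all others and 9 of 10 ethanol animals above the water median. It differed by 0.090 (SE 0.13, limma adjusted p = 0.785), or 0.20 without that animal. Its other probe set above the filter gave -0.052, at a mean of 7.40 against 10.19 for the one used.

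SK channels, which produce the afterhyperpolarization that follows a spike, were represented by Kcnn3 and Kcnn1. Kcnn3 ran from 7.22 through a median of 7.56 to 7.69 with ethanol and from 7.20 through 7.48 to 7.77 with water, with every ethanol value inside the water range, and differed by 0.030 (SE 0.078, limma adjusted p = 0.895), or 0.061 without ethanol animal 1. Kcnn1 differed by 0.0031 (SE 0.045), with an interval of -0.091 to 0.097, and had the smallest pooled SD of the family, 0.0946. Of 6 listed genes of the SK complex 4 were measured, 3 had a higher mean with ethanol and 0 an unadjusted limma p under 0.05.

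The inward rectifiers had 2 of 5 higher means and a median difference of -0.031. Kcnj16 (Entrez gene 29719, chromosome 10), a subunit of the glial channel that takes up potassium, ran from 8.79 through a median of 9.15 to 10.14 with ethanol and from 9.09 through 9.30 to 9.81 with water. Ethanol animal 1 was the highest of all 20, while 5 ethanol animals lay below the lowest water value. The difference was -0.16 (SE 0.14, limma adjusted p = 0.621), or -0.27 without ethanol animal 1, and the other probe set above the filter also gave -0.16. With the myelin mean as a covariate the difference was -0.043 (SE 0.14), and with the pan-neuronal mean -0.28 (SE 0.14). Of 13 listed astrocyte markers 12 were measured, 11 had a lower mean with ethanol and 2 an unadjusted limma p under 0.05, and their mean per array ran from 11.96 to 12.21 with ethanol and from 12.06 to 12.28 with water. The part of these cells in the Kcnj16 values was not tested.

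Kcnj6, a subunit of the G-protein-gated channel through which opioid and GABA-B receptors silence neurons, varied widely. It ran from 8.13 through a median of 9.18 to 10.13 with ethanol and from 8.55 through 9.26 to 10.04 with water, with the extremes of all 20 animals in ethanol animals 5 and 1, and differed by -0.072 (SE 0.21, limma adjusted p = 0.909). Its interval, -0.50 to 0.36, leaves room for sizable differences in either direction, and the difference was -0.17 without ethanol animal 1 and 0.057 without ethanol animal 5. Kcnj11, the pore of the ATP-sensitive channel, ran from 8.36 through a median of 8.80 to 9.05 with ethanol and from 8.50 through 8.68 to 8.95 with water. It differed by 0.073 (SE 0.084, limma adjusted p = 0.726), with 2 of its 3 probe sets higher. The lower one had a mean of 7.39, against 8.71 for the one used. Kcnj4 differed by 0.070 (SE 0.14) and Kcnj14 by -0.031 (SE 0.049). Of 12 regulators of G-protein-gated channels 10 had a higher mean with ethanol, and Gnao1, a G-protein alpha subunit abundant in neurons, was the 1 with an unadjusted p under 0.05, at 0.13 (SE 0.063, limma adjusted p = 0.386).

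Tandem-pore domain channels carry background current, and Kcnk4 (Entrez gene 116489, chromosome 1) encodes a member opened by membrane stretch and fatty acids. It ran from 7.38 through a median of 7.66 to 8.005 with ethanol and from 7.12 through 7.34 to 7.83 with water. All 10 ethanol animals lay above the water median and 6 water animals below the lowest ethanol value, while water animal 15 lay above 9 of the 10 ethanol animals. The difference was 0.24 (SE 0.084, limma adjusted p = 0.295), or 1.18-fold, with 0.36, 0.24 and 0.018 in the runs. Its mean of 7.52 was close to the filter. Kcnk2, a relative with similar gating, ran from 10.09 through a median of 10.48 to 10.95 with ethanol and from 10.08 through 10.37 to 10.54 with water. It differed by 0.11 (SE 0.087, limma adjusted p = 0.598). Its other probe set above the filter gave -0.024, at a mean of 7.52 against 10.41 for the one used. Without ethanol animal 1 Kcnk2 differed by 0.055, and with the pan-neuronal mean as a covariate by 0.011. Kcnk1 differed by -0.053 (SE 0.10, limma adjusted p = 0.857), or 0.0044 without ethanol animal 1, and Kcnk13 by 0.087 (SE 0.077).

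Of the auxiliary subunits 6 of 7 had a higher mean. Kcnab2 (Entrez gene 29738, chromosome 5), a cytosolic subunit that helps to bring Kv1 channels to axons, ran from 11.10 through a median of 11.30 to 11.36 with ethanol and from 10.86 through 11.14 to 11.33 with water. Of the ethanol animals 8 lay above the water median and 3 above the highest water value. The difference was 0.14 (SE 0.051, limma adjusted p = 0.314), with 0.16, 0.17 and 0.033 in the runs and 0.15 in the other probe set above the filter. Kcnab1, its paralog, ran from 11.38 through a median of 12.28 to 12.78 with ethanol and from 11.79 through 12.28 to 12.59 with water. Ethanol animal 1 was lowest of all 20. The difference was 0.10 (SE 0.14, limma adjusted p = 0.766), or 0.21 without that animal. The other probe set of Kcnab1 above the filter gave 0.24 (SE 0.13), at a mean of 8.54 against 12.25 for the one used.

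The Kcnip genes encode calcium-binding partners of Kv4 channels. Kcnip1 had the largest difference of the family but a wide spread. It ran from 9.06 through a median of 10.35 to 10.93 with ethanol and from 9.19 through 10.20 to 10.54 with water. Of the ethanol animals 4 lay above and 1 below the whole water range. The difference was 0.30 (SE 0.23, limma adjusted p = 0.575), or -0.041 with the pan-neuronal mean as a covariate. The other probe set of Kcnip1 above the filter gave 0.40 (SE 0.25), at a mean of 7.93 against 10.13 for the one used. Kcnip2 ran from 10.24 through a median of 11.11 to 11.43 with ethanol and from 10.71 through 10.92 to 11.17 with water, with ethanol animal 1 lowest of all 20, and differed by 0.12 (SE 0.11, limma adjusted p = 0.639), or 0.22 without it. Its other probe set above the filter gave 0.29, at a mean of 7.24 against 11.01 for the one used. Kcnip4 differed by 0.054 (SE 0.068), Kcnip3 by 0.029 (SE 0.076) and the single-pass subunit Kcne4 by -0.10 (SE 0.14).

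The means of all 6 other alpha subunits were higher with ethanol (median 0.15), and 0 had an unadjusted limma p under 0.05. Kcng2, a silent subunit that modifies Kv2 channels, ran from 9.08 through a median of 9.43 to 9.84 with ethanol and from 8.73 through 9.32 to 9.62 with water, with 8 ethanol animals above the water median, and differed by 0.20 (SE 0.10, limma adjusted p = 0.424). Kcnt1, a sodium-activated channel, ran from 9.52 through a median of 9.70 to 10.002 with ethanol and from 9.27 through 9.64 to 9.75 with water, with 3 ethanol animals above the highest water value, and differed by 0.11 (SE 0.063, limma adjusted p = 0.446). Its other probe set above the filter, singled out after its values were seen, gave 0.24 (SE 0.069, limma adjusted p = 0.239). Kcnh3, of the ether-a-go-go group, ran from 9.13 through a median of 9.83 to 10.02 with ethanol and from 9.49 through 9.67 to 10.01 with water, with ethanol animal 1 lowest of all 20, and differed by 0.077 (SE 0.089, limma adjusted p = 0.729), or 0.15 without it. Kcnh1, Kcnh2 and the silent subunit Kcnv1 differed by 0.21 (SE 0.13), 0.051 (SE 0.078) and 0.21 (SE 0.25). Kcnv1 had the highest pooled SD of the family, 0.597, where the median was 0.204.

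Beyond the Kcn genes, 37 of 43 listed partner genes were measured, of which 31 had a higher mean with ethanol. An unadjusted limma p under 0.05 was found for 6, all higher, and the median difference was 0.082. Of all probe sets 57.8% had a higher mean, 7.37% were higher and 5.48% lower at that level, and the median was 0.016. Among the 20 pan-neuronal markers 18 had a higher mean and 5 reached that level, with a median of 0.11. Potassium pump and cation-chloride cotransport genes were measured for 8 of 13, and 3 had an unadjusted limma p under 0.05. The pump subunit Atp1b1 differed by 0.099 (SE 0.037, limma adjusted p = 0.315) and the neuronal chloride extruder Slc12a5 by 0.13 (SE 0.046, limma adjusted p = 0.313). The pump subunit Atp1b2, common in glia, differed by -0.16 (SE 0.058, limma adjusted p = 0.305).

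Certain animals often held the lowest or highest value of their group. How often they did so over all probe sets was not counted. Water animal 18 had the lowest water value in 20 of the 39 genes and water animal 15 the highest in 14. Of all arrays, that of water animal 18 had the lowest mean correlation with the others (0.984). Ethanol animal 1 had the lowest ethanol value in 14 genes and the highest in 9, so it departed both ways. Its mean over 11 striatal medium spiny neuron markers was 9.42, against 9.92 to 10.69 in the other ethanol animals, and its myelin mean was 12.30, against 10.76 to 12.10. Water animal 18 had a pan-neuronal mean of 12.01, against 12.24 to 12.46 in the other water animals, and a mean over 7 meningeal markers of 10.58, against 7.89 to 9.58. The part of these tissue elements in the values of both animals was not tested.

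**Figure D3:**
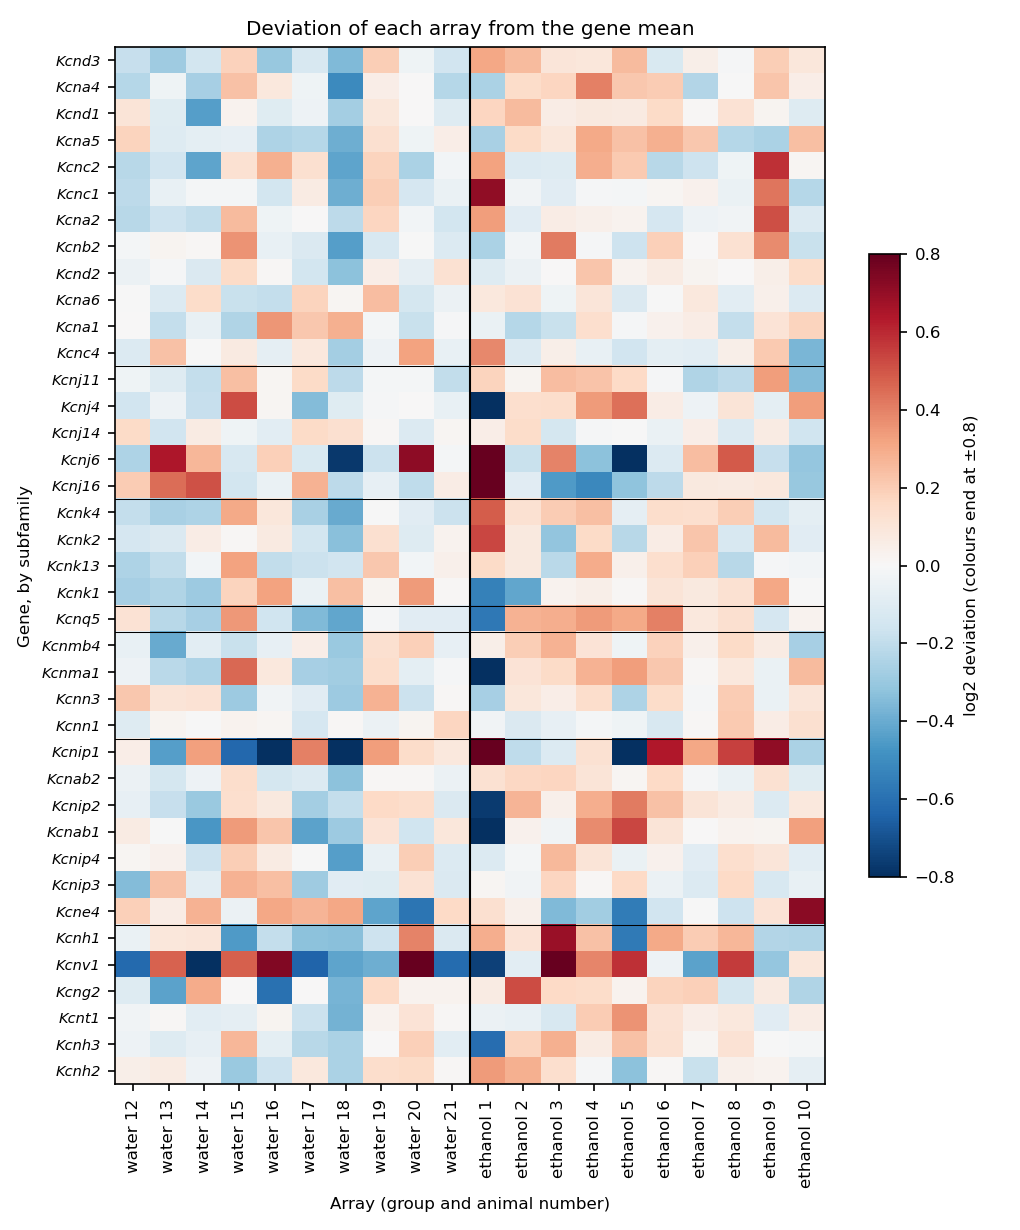
Deviation of each array (columns, 10 water then 10 ethanol animals) from the gene's mean log2 level over 20 arrays, for the 39 potassium channel genes (rows, by subfamily), with red above and blue below the mean and colours ending at 0.8. Water animal 18 is the lowest of its group in 20 genes, and ethanol animal 1 the lowest in 14 and the highest in 9.

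Without ethanol animal 1, 12 genes had a higher and 1 a lower mean at an unadjusted limma p under 0.05, against 6 and 0 with it, while the share of all probe sets at that level was 15.9%, against 12.8%. The first 6 were all among the 12, and those added were Kcna4 (0.22), Kcna5 (0.20), Kcnh3 (0.15), Kcnip2 (0.22), Kcnj4 (0.19) and Kcnma1 (0.20), and on the lower side Kcnj16 (-0.27). Without water animal 18 there were 4 higher, Kcnd3 (0.22), Kcnk4 (0.21), Kcnd1 (0.14) and Kcnab2 (0.11), and 0 lower, with 10.2% of probe sets at that level. Without both animals, a choice made after the data were seen, there were 7 higher and 1 lower (13.04% of probe sets), and 33 of 39 means were higher, against 55.1% of probe sets. In each case 0 genes passed limma's adjusted threshold of 0.05.

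Within the runs, a grouping that no label names, the mean was higher with ethanol in 29 of 39 genes in the first (52.2% of probe sets), 29 in the second (60.3%) and 21 in the last (51.4%), with medians of 0.087, 0.13 and 0.018. The last run holds 2 animals of each group. With the pan-neuronal mean as a covariate 28 of 39 differences were positive (55.8% of probe sets), with a median of 0.058, and with the myelin mean 27 (54.7%), with a median of 0.047. The positive differences with an unadjusted limma p under 0.05 were then Kcnd3 (0.19), Kcnk4 (0.19) and Kcnq5 (0.28) with the pan-neuronal mean, and Kcnd3 (0.20) and Kcnk4 (0.20) with the myelin mean. In these fits 9.03% and 12.4% of probe sets reached that level.

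**Figure D4:**
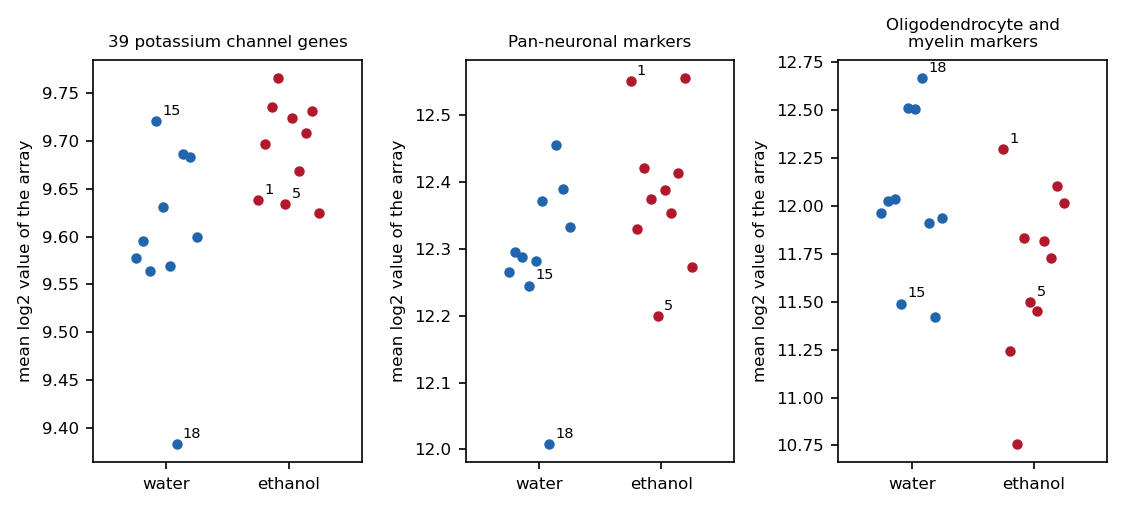
Mean log2 level per array (y axes) of the 39 potassium channel genes, the pan-neuronal markers and the oligodendrocyte and myelin markers, 1 point per animal in the water and ethanol groups, with ethanol animals 1 and 5 and water animals 15 and 18 numbered. Water animal 18 is lowest for the channel genes (9.38) and the pan-neuronal markers (12.01) and highest for the myelin markers (12.67).

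Of 8 pairs of subunits known to share a channel complex, 4 were run, on residuals from the group means over 20 arrays, with p-values adjusted over the 4. Kcnc1 and Kcnc2 gave Pearson's and Spearman's r = 0.59 (permutation p = 0.00458, adjusted 0.0183) and rho = 0.51 (permutation p = 0.0227, adjusted 0.0630). Their r was 0.50 and 0.58 within the first and second run of 8 arrays each, and 0.46 without the 2 arrays farthest from the median of Kcnc1. For Kcnd2 and Kcnip2 the values were r = 0.48 (permutation p = 0.0380, adjusted 0.0760) and rho = 0.48 (permutation p = 0.0315, adjusted 0.0630), with r of 0.67 and 0.69 within the first and second run and 0.48 without 2 arrays. Thus the Kv3 pair alone passed, by r and not by rho. Ethanol animals 1 and 9, highest for Kcnc1, had pan-neuronal means of 12.551 and 12.555. Water animal 18, lowest for Kcnc1 and Kcnc2, had 12.008. No correlation was adjusted for the pan-neuronal mean, and its part in that of the Kv3 pair was not tested. Kcna1 and Kcna2 gave r = -0.061 (permutation p = 0.799, adjusted 0.835) and rho = -0.11 (permutation p = 0.647, adjusted 0.740), with r of -0.20 and -0.65 within the first and second run and 0.0013 without 2 arrays. Kcnma1 and Kcnmb4 gave r = 0.048 (permutation p = 0.835, adjusted 0.835) and rho = 0.080 (permutation p = 0.740, adjusted 0.740), with r of 0.36 and 0.31 within the first and second run and 0.13 without 2 arrays. The last run, of 4 arrays, is too small for a value.

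The 36 genes below the filter are dim on these arrays and come from a fit without it, in which 0 of 75 potassium channel genes passed limma's adjusted threshold. Of the 36, 28 had a higher mean with ethanol, against 55.2% of all probe sets in that fit. An unadjusted limma p under 0.05 was found for 4 of the 36, near the 10.5% of all probe sets. These were Kcnj3, the partner of Kcnj6 in G-protein-gated channels, at 0.20 (SE 0.070, limma adjusted p = 0.388), the silent subunit Kcns2 at 0.13 (SE 0.061, limma adjusted p = 0.459), Kcnj12 at 0.13 (SE 0.061, limma adjusted p = 0.473) and Kcnk15 at -0.11 (SE 0.052, limma adjusted p = 0.465). A dimmer probe set of Kcnj3, with a mean of 6.17 and singled out after its values were seen, gave 0.31 (SE 0.067, limma adjusted p = 0.20), and the remaining one gave 0.016. Kcnj10, the main glial inward rectifier, had a mean of 4.81 and differed by 0.018 (SE 0.057), Kcnj9 by 0.033 (SE 0.066) and Kcnq3 by 0.11 (SE 0.070).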

How the data were processed

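Affymetrix arrays measured total RNA of the nucleus, 1 array per animal. RNA was isolated by Trizol followed by an RNeasy column, and label was added by a 3' IVT kit, per the labels' protocols. The authors deposited log2 values that RMA had summarised, per the submitters' processing notes, with the version not given in those notes. That the scale is log2 follows from the range of 3.82 to 16.16 over 31099 probe sets, 57 of them controls. Gene names came from the platform's annotation, and all 75 Kcn genes matched the RefSeq gene table.

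The difference was fitted by limma 3.58.1 (R 4.3.3, lmFit and eBayes, two-sided) on the 18625 probe sets above the 40th percentile, with Benjamini-Hochberg adjustment over all of them and a threshold of 0.05. Over all probe sets the median SE was 0.0624. Simulated data on 18625 probe sets had independent noise, with 40 probe sets each changed by 0.1, 0.2, 0.3, 0.5 and 1. There 15 of 40 changes of 0.2 and 26 of 40 changes of 0.3 were called. The larger changes loosen the Benjamini-Hochberg limit, and the changed probe sets were drawn from all those tested. These shares therefore do not give the power for the 39 channel genes, whose median SE was 0.087. Correlations used 100000 two-sided permutations in scipy 1.17.1. An array stood apart where its mean correlation lay over 3 scaled median absolute deviations below the median.

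The rule named genes with an unadjusted p under 0.05, the 2 of smallest p and the 2 of highest mean in each subfamily, a short list of further channel genes, and partner genes with an unadjusted p under 0.05. The other Kcn genes above the filter, and Kcn genes below it with an unadjusted p under 0.05, were named after their values were seen, so that each member is accounted for. Members and lists were chosen with earlier results of these data known. The pairs with a gene below the filter, and listed genes without a probe set here, are not analysed here. Alternatives were the filter, median centring, cyclic loess, array quality weights, trended robust eBayes, the run as a block, marker means as covariates, other rules for the probe set, the arrays that stand apart and each animal left out in turn.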

Additional observations from a re-analysis of the deposited data

Results flagged for a closer look

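For each named gene and group, the lowest and highest values were compared with the other 9, and a gap above 0.466 of the group's range was taken as far, which chance gives in about 1 in 20 groups. Only the 23 genes named by the rule were checked, not all 39. Of 46 combinations 5 were far, and all were ethanol animal 1. It lay below the other ethanol animals for Kcnma1 (9.25, others from 10.14 to 10.53), Kcnab1 (11.38, others from 12.22 to 12.78), Kcnip2 (10.24, others from 10.90 to 11.43) and Kcnh3 (9.13, others from 9.72 to 10.02). It lay above them for Kcnj16 (10.14, others from 8.79 to 9.38). Without it the differences were 0.20, 0.21, 0.22, 0.15 and -0.27, in that order. Kcnj4 was not among the genes checked, and there ethanol animal 1 was at 7.60, with the other ethanol animals from 8.61 to 9.13.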

How the results depend on the processing

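The SE had a median of 0.087 over the 39 genes, against a median difference of 0.096, 10 arrays per group limit the precision, and dim probe sets such as that of Kcnk4 lie close to the filter. In limma 0 genes passed the adjusted threshold under any of the 34 alternatives, where 6 had an unadjusted p under 0.05 as reported. Leaving out each animal in turn gave 0 to 0 genes at the adjusted threshold, 4 to 12 higher and 0 to 1 lower at an unadjusted p under 0.05, 30 to 34 higher means, and medians from 0.074 to 0.13. The 12 came without ethanol animal 1, where 15.9% of all probe sets had an unadjusted limma p under 0.05. With each animal left out in turn, that share ran from 9.91% (without ethanol animal 6) to 15.95% (without water animal 20).

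At an unadjusted p under 0.05 there were 2 higher with the myelin mean as a covariate and 3 higher and 1 lower (Kcnc4) with the pan-neuronal mean. Array quality weights gave 9 higher and 1 lower (Kcnj16), with 16.8% of all probe sets at that level against 12.8%, and leaving out ethanol animal 1 and water animal 18 together gave 7 higher and 1 lower. The run as a block and cyclic loess gave 4 higher each, with 13.6% and 12.2% of all probe sets at that level. With no filter, over 75 genes, there were 10 higher and 1 lower (10.5% of probe sets) and 60 higher means (55.2%). Cyclic loess gave 30 of 39 higher means, against 50.7% of probe sets, and median centring 32, against 60.8%.

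Of 779 combinations of 23 named genes with an alternative, 761 kept their sign and 18 turned it, in 7 genes. Kcna1 turned to 0.0022 with array weights, 0.085 with the myelin mean, 0.0041 with the pan-neuronal mean and 0.0044 without both animals. Kcnk1 turned to 0.040 with array weights and 0.028 without both animals. With the myelin mean Kcnh3 was at -0.067 and Kcnma1 at -0.046, with the pan-neuronal mean Kcnip1 was at -0.041 and Kcnn3 at -0.0079, and Kcnn3 was at -0.0094 without the arrays that stand apart. With 1 animal left out Kcna1 ran from -0.058 to 0.0078, Kcnk1 from -0.090 to 0.0044, Kcnj6 from -0.17 to 0.057 and Kcnn3 from -0.00055 to 0.063. Apart from fewer or more genes or animals, the cause was not tested. No paired analysis was possible because no animal number occurs in both groups.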
